A study of Mus musculus with 4 samples.

Results

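The 10 genes described here make and regulate fatty acids in the liver: Acly and Me1, which supply carbon and reducing power, the acetyl-CoA carboxylase genes Acaca and Acacb, the fatty acid synthase gene Fasn, the elongase gene Elovl6, the desaturase gene Scd1, the lipogenic cofactor gene Thrsp, and the transcription factor genes Srebf1 and Mlxipl. They were chosen by name, and all 10 were found among the 35522 genes listed in each deposited table. RNA of whole liver was sequenced 1 day after diethylnitrosamine (DEN), a liver carcinogen, with 2 Control libraries and 2 Dph1 KO libraries. All 4 came from mice of strain C57BL/6, and all had received DEN. Dph1 encodes a subunit of the enzyme at the first step of diphthamide synthesis, the modification that eEF2 carries on one histidine. The sources used here do not give the allele, the cells in which Dph1 was removed, or the age and feeding of the mice, and livers without DEN were not analysed here. Each library has a code of its own in its title, but the labels do not say that a code is an animal. The p-values therefore reflect the spread of these samples alone, and that spread may be technical.

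Fatty acid synthesis starts from citrate that leaves the mitochondria. ATP citrate lyase splits it into acetyl-CoA, acetyl-CoA carboxylase turns that into malonyl-CoA, and fatty acid synthase builds palmitate from both with NADPH as the reductant. Palmitate is then lengthened and desaturated to the oleate that goes into stored and exported triglyceride. In liver the genes of this route are switched on after feeding, through the sterol regulatory element binding protein encoded by Srebf1 (insulin) and the carbohydrate response element binding protein encoded by Mlxipl (glucose). Scd1 and Fasn are textbook targets of both factors.

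The libraries held 19474596 to 21137358 reads in genes. Dph1 reads, as counts per fixed library size after TMM scaling (CPM), were 70.3 and 68.3 in Control against 17.8 and 31.5 in Dph1 KO (log2 fold change -1.49, edgeR adjusted p = 0.0107), with 42.2% to 59.0% of them matched to a single place. The 10 hepatocyte markers had reads in every library, with a summed level of 91519 and 96300 TPM (the deposited level per exon length) in Control and 107879 and 107254 TPM in Dph1 KO. Control replicate 2 stood apart in reads of fat cell genes. Cfd had 78 reads there against 1, 0 and 1 in Control replicate 1 and Dph1 KO replicates 1 and 2, Adipoq 11 against 0, 1 and 0, Retn 7 against 0 in each, and Plin1 12 against 3, 1 and 2. Lep had no read in any library, and the summed level of the 10 fat cell markers was 26.0 and 35.2 TPM in Control against 30.8 and 30.5 TPM in Dph1 KO. Lipe, the most abundant of them, alone held 17.7 and 17.5 TPM of that sum in Control and 17.0 and 18.0 TPM in Dph1 KO. Cfd held 0.0928 and 6.75 TPM in Control against 0 and 0.0876 TPM in Dph1 KO. Fat cells also express several of the 10 genes, and values without Control replicate 2 are given below where they differ.

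Of the 10 genes, Scd1 rose in Dph1 KO livers, Fasn, Thrsp and Acacb fell, and 6 did not pass the test (edgeR, quasi-likelihood; p adjusted over all 13303 genes by Benjamini-Hochberg, under 0.05). Over all tested genes 12.3% were called, 4.86% as rises and 7.47% as falls. The median log2 fold change of the 10 genes was -0.12, against 0.04 over all tested genes. In 6 of the 10 genes both Dph1 KO libraries lay on one side of both Control libraries, which also held for 67.4% of all tested genes. An exact two-sided permutation test of 2 libraries against 2 cannot go below p = 0.333, and the calls depend on a spread shared across genes. TMM left the median of all genes near 0, whereas scaling by library totals put it at 0.30 and TPM at 0.32, so CPM changes are relative to the typical gene. In bulk tissue, fewer cells of a type and less RNA per cell cannot be told apart.

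**Figure D1:**
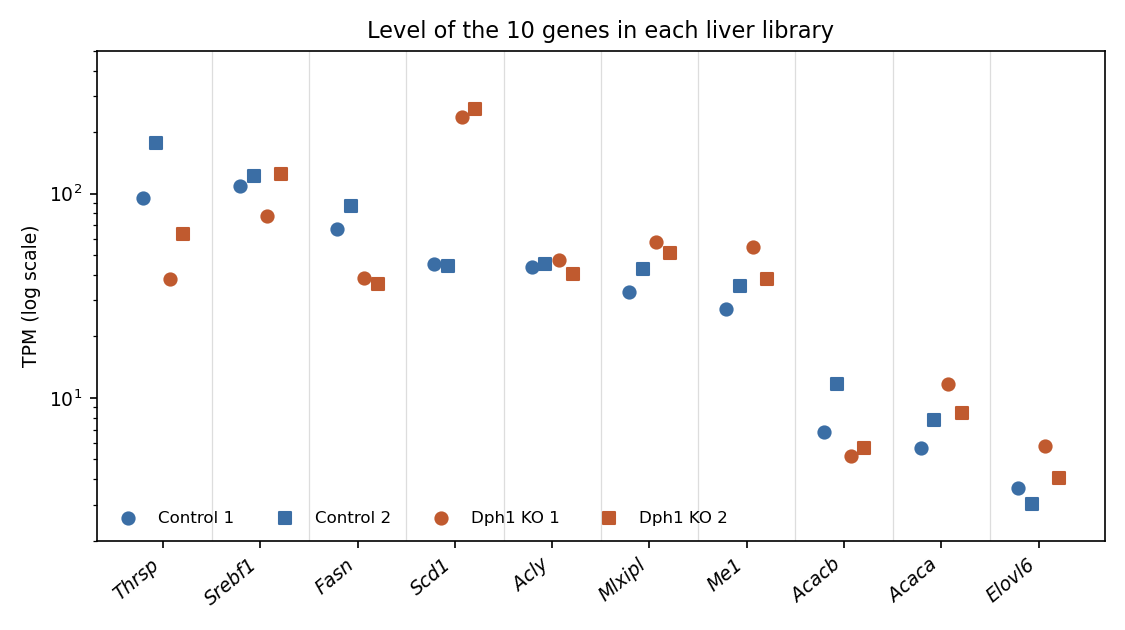
Level of each of the 10 genes in TPM (log axis), 1 point per library, with Control in blue, Dph1 KO in orange, replicate 1 as circles and replicate 2 as squares. Scd1 stands at 238 and 260 TPM in Dph1 KO against 45.3 and 44.0 in Control, while both Dph1 KO points of Thrsp, Fasn and Acacb lie under both Control points.

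The sequences just before the start sites of the 3 genes that fell are printed because these genes moved in one direction. They are the 120 bases before the RefSeq start in build GRCm38.p6, 5′ to 3′ on the strand of the gene, with each CCAAT box, read on either strand, in capitals.
Fasn (chr11:120824548-120824667, minus strand): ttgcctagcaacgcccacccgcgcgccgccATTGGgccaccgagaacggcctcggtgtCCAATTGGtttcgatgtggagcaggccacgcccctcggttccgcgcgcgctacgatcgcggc
Thrsp (chr7:97417551-97417670, minus strand): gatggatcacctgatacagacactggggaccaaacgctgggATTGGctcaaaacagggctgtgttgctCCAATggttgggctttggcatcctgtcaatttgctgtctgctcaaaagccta
Acacb (chr5:114165398-114165517, plus strand): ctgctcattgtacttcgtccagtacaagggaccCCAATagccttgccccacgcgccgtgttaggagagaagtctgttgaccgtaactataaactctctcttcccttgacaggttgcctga

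CCAAT, the core of sites bound by the factor NF-Y, occurred 3 times in Fasn, 2 times in Thrsp and once in Acacb. All 6 matches began between 90 and 52 bases before the start. The second and the third match in Fasn overlap on opposite strands. Over windows of 250 bases before the start, 33.8% of 32851 RefSeq promoters held CCAAT. So did 7 of the 13 windows of the 9 members found in the table. These 7 windows belonged to 6 members (Acacb, Fasn, Me1, Mlxipl, Srebf1 and Thrsp). The motif was therefore shared with 3 genes that were not called. The E-box CACGTG was found in 1 of the 13 windows, for Mlxipl alone among the 9, against 6.02% of all windows. The sterol regulatory element TCACNCCAC was also found in 1 of the 13, for Mlxipl alone, against 1.05%. Scd1 had no entry in the promoter table.

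Acly, on chromosome 11 at 100476352 to 100528000 in GRCm38, encodes ATP citrate lyase. It stood at 127 and 143 CPM in Control against 99.4 and 105 CPM in Dph1 KO. Both Dph1 KO libraries were lower, but the difference of -0.40 on the log2 scale (SE 0.21) did not pass the test (edgeR adjusted p = 0.202). The deposited TPM, which carry no TMM scaling, were 43.7 and 45.3 in Control against 47.3 and 40.3 in Dph1 KO and overlapped. Me1, the cytosolic malic enzyme that yields NADPH, lies on chromosome 9 at 86581363 to 86695914. It stood at 62.3 and 89.3 CPM in Control against 91.0 and 78.1 CPM in Dph1 KO, so the groups overlapped (log2 fold change 0.16, SE 0.23). Between 61.5% and 63.9% of the reads of Me1 matched a single place, and the gene overlaps A330041J22Rik on the other strand, so its level is uncertain.

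The carboxylase genes gave different values. Acaca, on chromosome 11 at 84195438 to 84401651, encodes the cytosolic carboxylase whose malonyl-CoA feeds synthesis. Its values were 34.7 and 50.3 CPM in Control against 50.5 and 44.8 CPM in Dph1 KO, and the groups overlapped (log2 fold change 0.17, SE 0.22, edgeR adjusted p = 0.624). Only 43.2% to 46.6% of Acaca reads matched a single place, and uniquely matched reads gave a log2 fold change of 0.22. Acacb, on chromosome 5 at 114165518 to 114250758, encodes the carboxylase at the mitochondrial outer membrane, whose malonyl-CoA restrains the entry of fatty acids for oxidation. It had 38.5 and 70.3 CPM in Control against 21.2 and 28.6 CPM in Dph1 KO. Both Dph1 KO libraries were below both Control libraries, but the Control libraries also differed from each other. Acacb fell by 1.13 on the log2 scale (SE 0.28, edgeR adjusted p = 0.0338). Without Control replicate 2 the log2 fold change was -0.63 and the call was lost (edgeR adjusted p = 0.315), and the call was also lost on log2(TPM + 1) values (-0.64, limma adjusted p = 0.0846). The TPM ratio of Acacb to Acaca was 1.20 and 1.50 in Control against 0.444 and 0.668 in Dph1 KO, so their order by TPM was opposite in the genotypes. That order is uncertain, because 43.2% to 46.6% of Acaca reads matched a single place, against 100% of Acacb reads. The pair differs in GC content (56.7% and 49.1%), which fold changes followed, as given below.

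Fasn, on chromosome 11 at 120805958 to 120824547, encodes the synthase itself. It stood at 426 and 604 CPM in Control against 174 and 204 CPM in Dph1 KO, with no overlap between the groups. Fasn fell by 1.44 on the log2 scale (SE 0.27, edgeR adjusted p = 0.0139), which is 2.72-fold. Leaving out Control replicate 2, the library with the higher Fasn value and the fat cell reads, gave -1.17, and the call was lost (edgeR adjusted p = 0.109). The other leave-one-out values lay between -1.68 and -1.31 and were called. With Control replicate 2 left out, 1 rise and 1 fall were called among the 10 genes and 3.82% over all tested genes. The part of the fat cell reads in the Fasn, Thrsp and Acacb values was not tested beyond these values.

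Elovl6, which lengthens palmitate to stearate, lies on chromosome 3 at 129532386 to 129638495 and had the lowest mean TPM of the 10 genes in both genotypes, although its Dph1 KO libraries overlapped those of Acacb. It had 14.6 and 14.0 CPM in Control against 17.3 and 15.3 CPM in Dph1 KO, and the difference did not pass the test (log2 fold change 0.19, SE 0.20, edgeR adjusted p = 0.514).

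Scd1, on chromosome 19 at 44394450 to 44407709, encodes the liver's main stearoyl-CoA desaturase, which puts the first double bond into stearate and palmitate. Its reads numbered 2561 and 2668 in Control livers against 12325 and 15562 in Dph1 KO, which is 139 and 148 CPM against 522 and 712 CPM. Both Dph1 KO libraries were far above both Control libraries, and the Control libraries lay close together. Scd1 rose by 2.10 on the log2 scale (SE 0.27, edgeR adjusted p = 0.00181), which is 4.29-fold. The call held in all 19 alternatives run, with values from 1.48 to 2.48. Without Control replicate 2 the log2 fold change was 2.15. Scd1 lies in a cluster of related desaturase genes, but 97.0% to 97.6% of its reads matched a single place. Its neighbour Scd2 had reads of 166 and 152 in Control livers against 136 and 150 in Dph1 KO and missed the threshold (-0.47 on the log2 scale, edgeR adjusted p = 0.170). Scd3 had 1 read in Control replicate 1 and none elsewhere, and Scd4 had none in any library, which allows up to 3 reads per library by counting error.

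Thrsp, on chromosome 7 at 97412957 to 97417510, encodes a small nuclear and cytosolic protein that promotes lipogenesis and responds to thyroid hormone and carbohydrate. It had 64.0 and 134 CPM in Control against 18.5 and 42.1 CPM in Dph1 KO. The groups did not overlap, but replicate 2 was well above replicate 1 in both genotypes. Thrsp fell by 1.71 on the log2 scale (SE 0.40, edgeR adjusted p = 0.0276). Leaving out Control replicate 2 gave -1.08 (edgeR adjusted p = 0.0473), leaving out Dph1 KO replicate 1 gave -1.20 (adjusted p = 0.0190), and leaving out Dph1 KO replicate 2 gave -2.39 (adjusted p = 0.000819). DESeq2 gave -1.72 and no call (adjusted p = 0.105).

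Srebf1, on chromosome 11 at 60199089 to 60220604, had 303 and 368 CPM in Control against 158 and 308 CPM in Dph1 KO. Dph1 KO replicate 1 was the lowest library, while Dph1 KO replicate 2 lay inside the Control range. Srebf1 missed the threshold (-0.53 on the log2 scale, SE 0.32, edgeR adjusted p = 0.257). Without Dph1 KO replicate 2 it was called lower (log2 fold change -1.07, edgeR adjusted p = 0.00343), in a fit that called 39.3% of all tested genes and, of the 10, 1 rise and 4 falls. Srebf1 overlaps Rai1 on the other strand. The sources used here do not say whether counting used strand, so reads of such overlaps cannot be assigned for certain. Mlxipl, on chromosome 5 at 135106891 to 135138382, had 86.4 and 122 CPM in Control against 117 and 122 CPM in Dph1 KO, and the groups overlapped (0.20 on the log2 scale, SE 0.23, edgeR adjusted p = 0.554). The TPM ratio of Srebf1 to Mlxipl was 3.31 and 2.84 in Control against 1.34 and 2.43 in Dph1 KO.

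**Figure D2:**
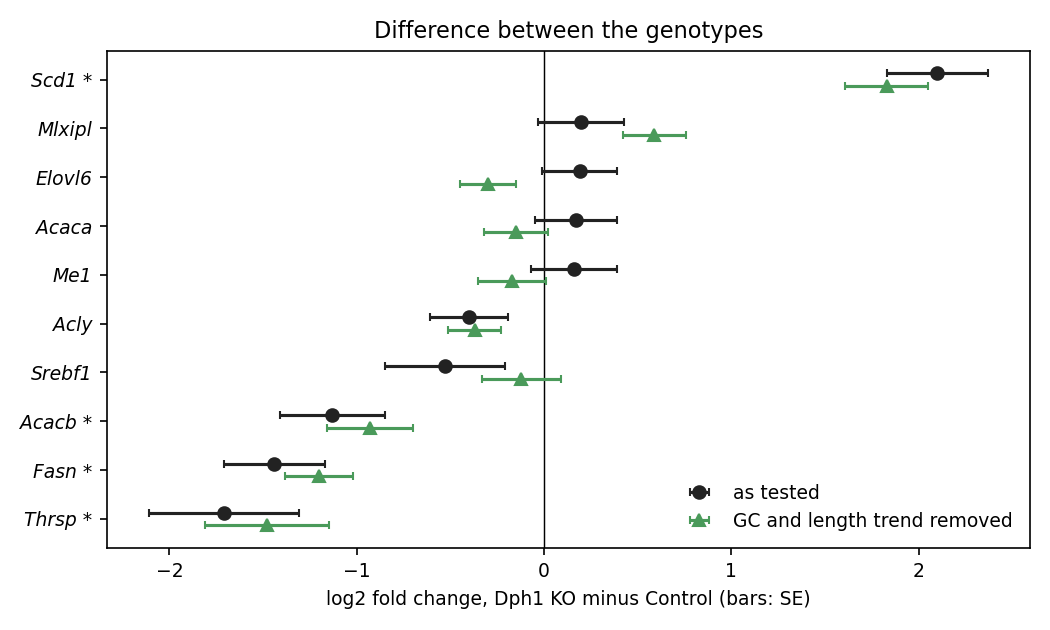
Log2 fold change of each gene, Dph1 KO minus Control, with its SE as a bar, from the edgeR test (black circles) and with GC content and exon length corrected for (green triangles). An asterisk marks the 4 genes called by edgeR, which keep their direction in both.

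Per exon length, the order of the 10 genes differed between the genotypes. In Control livers Thrsp (mean 136 TPM), Srebf1 (115 TPM) and Fasn (77.2 TPM) stood highest, and the libraries of Thrsp and Srebf1 overlapped each other. Scd1 (44.7 TPM) and Acly (44.5 TPM) followed and could not be told apart, and Mlxipl (37.8 TPM) and Me1 (31.2 TPM) overlapped each other. In Dph1 KO livers Scd1 led at 249 TPM, followed by Srebf1 at 101 TPM. Mlxipl (54.4 TPM), Thrsp (50.9 TPM), Me1 (46.5 TPM) and Acly (43.8 TPM) followed, each overlapping the next, and Fasn (37.4 TPM) lay below both Acly libraries. Acaca, Acacb and Elovl6 were the lowest in both genotypes. On this scale, which has no TMM step, both Dph1 KO libraries of Acaca, Me1 and Mlxipl lay above both Control libraries, whereas in CPM they overlapped. Scd1 made up 10.4% and 7.63% of the summed TPM of the 10 genes in Control and 41.4% and 41.2% in Dph1 KO. Thrsp went from 21.7% and 30.8% to 6.64% and 10.1%, and Fasn from 15.4% and 15.1% to 6.71% and 5.74%. The summed TPM of the other 9 genes without Scd1 was 390.4 and 532.4 in Control against 336.9 and 371.6 in Dph1 KO.

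Ratios within a library do not depend on how the libraries are scaled. The TPM ratio of Scd1 to Fasn was 0.673 and 0.505 in Control against 6.17 and 7.18 in Dph1 KO, a difference of 3.51 on the log2 scale. Fold changes over all genes followed the GC content of the transcripts. Across 12487 protein-coding genes, which share the 4 libraries and are not independent, the Spearman correlation was -0.62, and the median log2 fold change went from 0.48 in the lowest of 5 GC classes to -0.56 in the highest. Scd1 has a GC content of 47.1% and Fasn of 57.9%, so their ratio moves with this trend. Pairs of like GC content, chosen after the values were seen, were therefore compared. Scd1 to Acaca (49.1% GC) stood at 8.01 and 5.63 in Control against 20.5 and 30.7 in Dph1 KO. Fasn to Mlxipl (56.6% GC) stood at 2.05 and 2.04 in Control against 0.668 and 0.712 in Dph1 KO. Thrsp to Acly (52.0% and 52.1% GC) stood at 2.17 and 3.92 in Control against 0.808 and 1.58 in Dph1 KO, and Acacb to Mlxipl (56.7% and 56.6% GC) at 0.207 and 0.274 in Control against 0.0895 and 0.111 in Dph1 KO. In each of these 4 pairs the genotypes did not overlap. The first gene of each pair was, however, a called gene whose groups already did not overlap. The pairs are therefore no separate support for the calls, and the share of other gene pairs without overlap was not computed.

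After a trend on GC content and exon length had been taken out of each library and the spread estimated anew, the same 4 genes were called, beside 11% of all tested genes. Scd1 had a log2 fold change of 1.83 (SE 0.22), Fasn of -1.20 (SE 0.18), Thrsp of -1.48 (SE 0.33) and Acacb of -0.93 (SE 0.23). Srebf1 moved to -0.12 (SE 0.21). Genes within 1 percentage point of its GC content had a median log2 fold change of -0.57, close to the -0.53 of Srebf1 before the step. Mlxipl moved to 0.59 (SE 0.17, edgeR adjusted p = 0.0570), while Acaca, Elovl6 and Me1 changed sign to -0.15, -0.30 and -0.17, and none of these was called. With this step and Control replicate 2 left out, a combination added after the data were seen, Scd1 was called and Fasn (-0.96), Thrsp (-0.89) and Acacb (-0.45) were not.

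**Figure D3:**
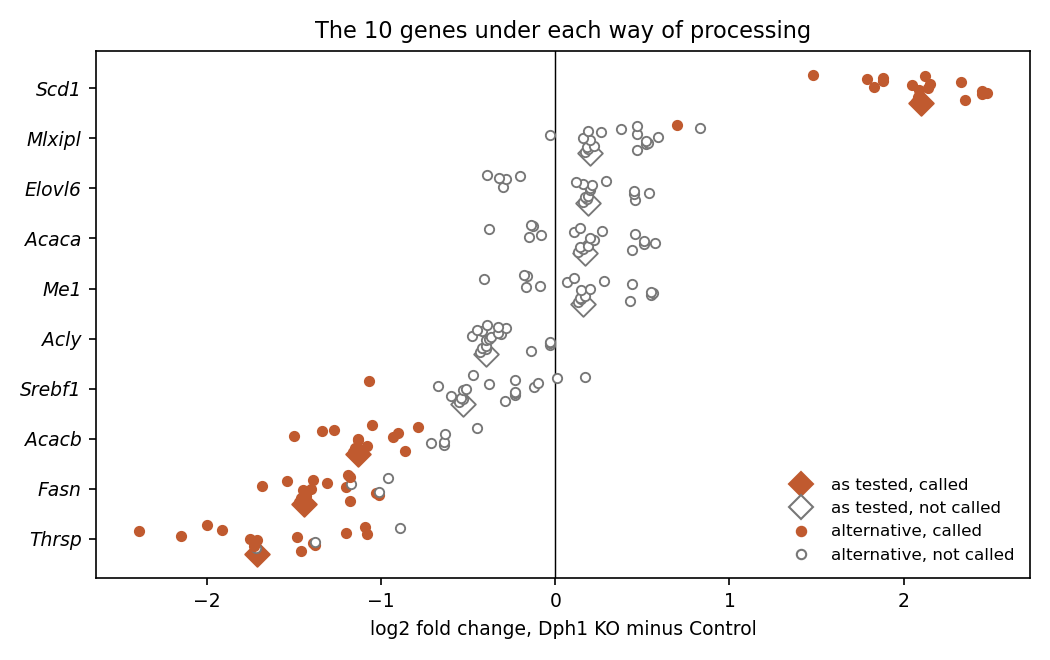
Log2 fold change of each gene, Dph1 KO minus Control, as tested (diamonds) and under 19 other ways of processing (circles, spread vertically to be seen), filled where the adjusted p was under 0.05. All Scd1 points are filled and lie from 1.48 to 2.48, and the points of Fasn, Thrsp and Acacb all lie below 0 with some open. Those of Acaca, Elovl6, Me1, Srebf1 and Mlxipl fall on both sides of 0.

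Reads that span exon junctions come only from spliced RNA. Scd1 junction reads numbered 214 and 261 in Control against 1010 and 1299 in Dph1 KO. Those of Fasn numbered 3283 and 4471 against 1796 and 1816, those of Thrsp 105 and 197 against 43 and 68, and those of Acacb 286 and 590 against 234 and 277. In these 4 genes the junction reads of the genotypes did not overlap, as with gene reads. Junction reads are part of the gene reads of the same libraries, so they are no separate support. The counts are not scaled, and those of Acacb lay close (286 in Control replicate 1 against 277 in Dph1 KO replicate 2). The share of all genes without overlap in junction reads was not computed. Intron reads were few. Fasn had 15 and 19 in Control against 12 and 9 in Dph1 KO, and a fit of intron reads over 9341 genes gave a log2 fold change of -1.48 (SE 0.43, edgeR adjusted p = 0.180). None of the 9 members tested there was called, 1 of them (Fasn) had an unadjusted p under 0.05, and 0.846% of all genes in that fit were called. Thrsp intron reads were 29 and 96 in Control against 12 and 105 in Dph1 KO, so the genotypes overlapped. Their log2 fold change was -0.79 and -3.39 without Dph1 KO replicate 2, where it was called. Scd1 had at most 6 intron reads per library and was not tested.

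The genes around this route were read from 5 lists with 75 measured members, of which 72 were tested. Of these, 6 rose and 7 fell, beside the 12.3% called over all tested genes. After GC correction 7 rose and 2 fell. Without Control replicate 1 the counts were 4 and 2, without Control replicate 2 they were 2 and 1, and without Dph1 KO replicate 2 they were 18 and 23. Among 12 genes of substrate and NADPH supply, edgeR called none, DESeq2 called 3 lower, and in edgeR 4 had lower values with an unadjusted p under 0.05. The share of all genes that DESeq2 called is not given, here or below, so its counts cannot be set against a background. Over the 5 lists together DESeq2 called 5 rises and 14 falls, against 6 and 7 in edgeR. The citrate carrier gene Slc25a1, which exports the citrate that Acly splits, had a log2 fold change of -0.67 (edgeR adjusted p = 0.121), and the pyruvate carboxylase gene Pcx of -0.70 (adjusted p = 0.104).

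Of 14 tested genes of elongation and desaturation, 2 rose and 1 fell, beside 12.3% of all tested genes called. Elovl3, an elongase of saturated and monounsaturated chains, had 2.72 and 10.96 CPM in Control against 29.0 and 28.5 CPM in Dph1 KO (log2 fold change 2.07, edgeR adjusted p = 0.0213). Its Control libraries differed 4-fold, and leaving out 1 library gave 1.38 (without Control replicate 1) to 3.40 (without Control replicate 2), while DESeq2 did not call it (2.05). Hsd17b12, which carries out a reduction step of the elongation cycle, rose with a log2 fold change of 0.77, and the call was lost without either Control library. Fads2, the desaturase at the entry to polyunsaturated fatty acid synthesis, had 267 and 265 CPM in Control against 103 and 131 CPM in Dph1 KO and fell by 1.19 on the log2 scale (edgeR adjusted p = 0.0166). The Fads2 call was also lost without either Control library. Among 13 genes of fatty acid activation and esterification, Dgat1, which makes triglyceride, fell by 0.79 (edgeR adjusted p = 0.0432), a call lost after GC correction and without either Control library or Dph1 KO replicate 1. The abundant genes Dgat2 (log2 fold change -0.84, adjusted p = 0.0616) and Agpat2 (-0.54, adjusted p = 0.184) were not called.

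Of 26 genes of lipogenic control, 4 rose and 3 fell, beside 12.3% of all tested genes called. Insig2, whose product retains the SREBP precursor in the endoplasmic reticulum, had 33.1 and 40.4 CPM in Control against 110 and 101 CPM in Dph1 KO. It rose by 1.52 on the log2 scale (SE 0.21, edgeR adjusted p = 0.00323), a call that held in all 19 alternatives run (1.18 to 1.96). Pparg, a lipogenic nuclear receptor of low level in liver, had 1.36 and 1.00 CPM in Control against 3.48 and 3.80 CPM in Dph1 KO (log2 fold change 1.62, adjusted p = 0.0191). The insulin receptor substrate gene Irs1 (0.98) rose. Pparg and Irs1 were not called without Control replicate 2. Mbtps2, a protease that releases SREBP from the membrane, rose by 0.99, and Srebf2, the sterol-responsive relative of Srebf1, fell by 0.83. Mid1ip1, the paralogue of Thrsp whose product activates acetyl-CoA carboxylase, had 45.6 and 47.4 CPM in Control against 23.8 and 23.9 CPM in Dph1 KO and fell by 0.96. Scap, which escorts SREBP out of the endoplasmic reticulum and was named after its values were seen, fell by 0.97 (adjusted p = 0.0468). The calls of Mbtps2, Srebf2, Mid1ip1 and Scap were lost after GC correction and without either Control library, those of Mbtps2 and Scap also without Dph1 KO replicate 1. In mitochondrial fatty acid synthesis, a separate route that serves lipoate, 2 of 7 genes fell, beside 7.47% of all tested genes called as falls. They were Mcat (log2 fold change -1.13, adjusted p = 0.0218) and Lipt2 (-1.13, adjusted p = 0.0499), and Lipt2 was lost after GC correction, in DESeq2 and without either Control library or Dph1 KO replicate 1.

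**Figure D4:**
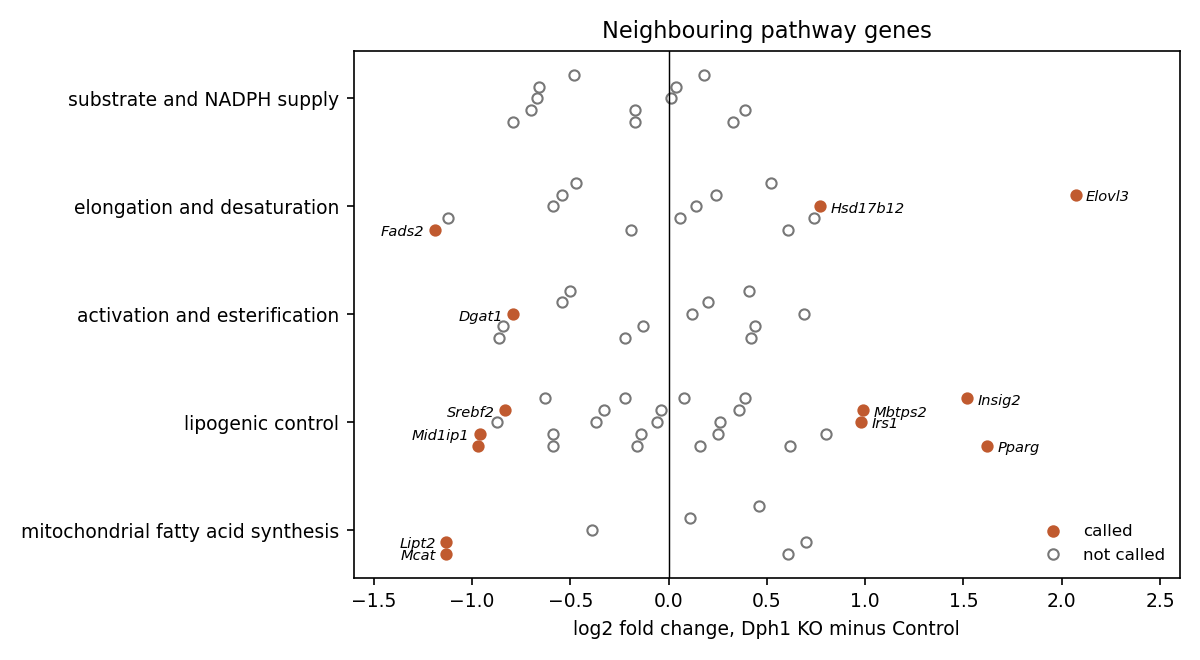
Log2 fold change, Dph1 KO minus Control, of the tested genes of 5 neighbouring lists, 1 point per gene, filled where edgeR called it. All filled points but that of Scap carry the name of the gene. Called genes lie on both sides of 0 in the lists of elongation and desaturation and of lipogenic control, and none is called in substrate and NADPH supply.

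Clock genes time hepatic lipogenesis to the feeding phase. Of 15 tested, 2 rose and 3 fell, beside 12.3% of all tested genes called. After GC correction 3 rose and 5 fell, beside 11% of all tested genes called. Arntl had 1.69 and 1.50 CPM in Control against 9.41 and 4.62 CPM in Dph1 KO (log2 fold change 2.14, edgeR adjusted p = 0.0103), and Clock rose by 1.64, or by 0.96 after GC correction. Dbp, an output factor of the clock, had 174 and 210 CPM in Control against 26.8 and 63.9 CPM in Dph1 KO and fell by 2.08 (adjusted p = 0.00884). The log2 fold change of Dbp was -1.40 after GC correction and -2.82 without Dph1 KO replicate 2, and it was called in both. Per2, a repressor within the clock, fell by 0.99, a call that was lost without either Control library. Nr1d1, named after its values were seen, was higher in both Dph1 KO libraries and missed the threshold (log2 fold change 0.60, edgeR adjusted p = 0.0912). After GC correction Nr1d1 was called higher (1.06, edgeR adjusted p = 0.00383). The sources used here do not give the hour at which the livers were taken. Of 10 genes that respond to feeding and fasting, 1 rose, the glycogen-targeting subunit gene Ppp1r3c (log2 fold change 1.22, adjusted p = 0.0218), which was not called without Control replicate 2. In that list DESeq2 called 2 falls and edgeR 0, with 2 lower in edgeR at an unadjusted p under 0.05. The latter were Txnip (log2 fold change -1.10, adjusted p = 0.0610) and Angptl4 (-1.02, adjusted p = 0.0688), named after their values were seen. Without Control replicate 2 Txnip stood at -0.29 and Angptl4 at -0.70. Falls in the list numbered 1 after GC correction, beside 11% of all tested genes called in either direction. The median log2 fold change of the list was -0.04 after GC correction, against 0.00 over all tested genes. With single libraries also left out, in fits added after the data were seen, the sign of that median depended on the library. Omitting Control replicate 1 gave -0.42, whereas omitting Control replicate 2 gave 0.18. For the Dph1 KO libraries the values were -0.24 (replicate 1 omitted) and -0.71 (replicate 2 omitted). Over all tested genes the median lay between -0.01 and 0.01 in these fits. The part of the clock differences in the values of the 10 genes was not tested.

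Markers of the other cells of the liver were read in the same way, beside the 12.3% called over all tested genes. Of 9 macrophage markers, 1 fell, Cd68 (log2 fold change -1.18, adjusted p = 0.0159). The median log2 fold change of the 9 was 0.08, and in edgeR no other had an unadjusted p under 0.05. Their summed level was 333 and 312 TPM in Control against 255 and 336 TPM in Dph1 KO. Cd68 alone held 169.5 and 144.4 TPM of it in Control and 83.9 and 93.9 TPM in Dph1 KO. Of 8 stellate cell markers, Rgs5 rose by 0.99 and Col1a1 and Des fell by 1.06 and 0.91, all named after their values were seen and all lost without Control replicate 2, with sums of 71.8 and 73.3 TPM in Control against 116 and 79.9 TPM in Dph1 KO. No endothelial marker of 7, no bile duct marker of 5 tested and no fat cell marker of 4 tested was called in the edgeR test described above. There 1, 2 and 0 of them had an unadjusted p under 0.05, and DESeq2 called none of those it tested. After GC correction edgeR called 1 endothelial fall and 1 fat cell rise. In bile duct markers edgeR called 1 fall with uniquely matched reads, 1 with exon reads only and 2 with no filter on low counts. The 4 fat cell markers tested do not include Cfd, Adipoq, Retn and Plin1, whose reads were too few for the filter. With no filter on low counts edgeR tested 9 fat cell markers, called 1 fall and gave a median log2 fold change of -1.13, with 4 lower at an unadjusted p under 0.05. The summed levels were 92.6 and 83.7 TPM in Control against 120 and 97.7 TPM in Dph1 KO for endothelial markers, and 30.4 and 16.5 TPM in Control against 25.0 and 18.7 TPM in Dph1 KO for bile duct markers. The summed level of the erythroid markers was 62.8 and 57.3 TPM in Control against 88.1 and 73.4 TPM in Dph1 KO. The part of these cell types in the values of the 10 genes was not tested.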

How the data were processed

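Liver RNA of 4 libraries was sequenced from directional mRNA libraries, per the labels' protocols, and reads were placed on GRCm38 (mm10) according to the submitters' processing notes. The sources used here do not name the aligner or the counting tool, or say how reads that match several places were shared out. Per the file headers, the authors deposited whole-number read counts per gene (total and uniquely matched, for genes, exons, exon junctions and introns). TPM and RPKM values and ratios (each a fraction of reads) made by the authors stand beside them, and of these only TPM was used.

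Total gene reads were tested in R 4.3.3 with edgeR 4.0.16 (filterByExpr, TMM, glmQLFit, glmQLFTest; genotype the sole term). The Benjamini-Hochberg adjustment covered all 13303 tested genes, with 0.05 as threshold, past which "rose" and "fell" are used. The SE is the size of the log2 fold change over the square root of F, and the biological coefficient of variation was 18.5%. Replicates, numbered in accession order, differed by more than sampling noise (chi-square per degree of freedom 29.7 in Control, 77.3 in Dph1 KO) and were all kept. Intervals and floors cover counting error only.

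GC content was taken per gene from its longest transcript in GENCODE M21 (98.8% of protein-coding genes matched). Each library's deviation from the gene mean was smoothed on GC content and exon length (mgcv 1.9.3, basis size 6, log2 CPM with a prior count of 2) and entered as an offset. Alternatives were DESeq2 1.42.0, limma 3.58.1 (voom, or trend on log2(TPM + 1) or log2(TPM + 0.1), with a mean TPM of at least 1 or no filter), other scalings, filters and read classes, and omission of single libraries, where the lone sample of a genotype is taken to vary like the other genotype. The tests were tested on simulated data. Promoters came from a RefSeq table (GRCm38.p6).

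The 10 genes and all lists were chosen with earlier results of these data known. Of 168 list entries, 3 were not matched. The text names all 10 genes and Dph1, up to 6 called members by p-value of each of the 5 neighbouring lists (the 2 most abundant not called where fewer than 2 were called), up to 5 called clock or feeding genes, and of the markers the 2 most abundant and those at 0. Some genes that this rule names are not reported here. Scd2, Scd3, Scd4, Scap, Nr1d1, Txnip, Angptl4 and the fat cell and stellate genes were named after their values were seen. Tables and plots used Python 3.11.15, pandas 2.3.3, SciPy 1.17.1 and matplotlib 3.10.9.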

Additional observations from a re-analysis of the deposited data

How the results depend on the processing

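Scd1 was called in all 19 alternatives; Fasn, Thrsp and Acacb kept their direction in all 19 and their call in 16, 16 and 14. No paired analysis was possible because the labels give no replicate numbers that the genotypes share. In each case below the cause was not tested. Unfiltered log2(TPM + 1) values gave 0 falls among the 10 genes, 1 rise and 0 falls among pathway genes, and 25 rises and 24 falls over all genes. Filtered log2(TPM + 1) values gave 20 pathway rises, with 2363 rises and 562 falls over all genes, and log2(TPM + 0.1) gave 21, 2476 and 578. Library totals gave 18 pathway rises, 2634 rises over all genes beside 789 falls (646 and 994 with TMM), and 46 rises in intron reads. Pathway falls were 11 with no filter on counts, 14 with DESeq2 and 2 after GC correction. Without single libraries the falls among the 10 genes numbered 1 to 4, pathway rises 2 to 18 and falls 1 to 23, rises over all genes 180 to 2599 and falls 346 to 2806, and rises in intron reads 12 to 219 and falls 45 to 623. Acaca then lay between -0.08 and 0.46, Me1 between -0.09 and 0.44, Mlxipl between -0.03 and 0.47, and Thrsp intron reads between -3.39 and 0.50. GC correction put Acaca at -0.15, Elovl6 at -0.30 and Me1 at -0.17. GC correction without single libraries, added after seeing the data, gave 0 to 3 falls and 1 to 2 rises among the 10 genes, and 2 to 10 rises and 0 to 8 falls among pathway genes. Over all genes it gave 206 rises and 348 falls without Control replicate 1, 97 and 122 without Control replicate 2, 497 falls without Dph1 KO replicate 1 and 984 rises without Dph1 KO replicate 2. In the same order it gave Elovl6 -0.28, -0.32, -0.20 and -0.39. Acaca stood at -0.38, -0.13 and -0.14 and Me1 at -0.41, -0.16 and -0.18 without Control replicate 1, Dph1 KO replicate 1 and Dph1 KO replicate 2. Srebf1 stood at 0.01 when Control replicate 2 was left out and at 0.17 when Dph1 KO replicate 1 was.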
